A study of Trichoderma reesei QM6a with 24 samples.

Results

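The models TrE0665C to TrE0671C lie side by side on contig unitig_4_consensus of the *Trichoderma reesei* genome, directly after the sorbicillin cluster model TrE0663W and its neighbour TrE0664C. All 7 models whose identifiers begin with TrE0665 to TrE0671 were taken as members, out of 10879 models in the count table. The stretch was picked because its main models had high counts in darkness and few in light, so light against darkness is given here as a description, with no test. It holds axe1, cip1 and cel61a, 3 genes for breaking down plant cell walls, together with 4 models of low count.

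RNA was sequenced from mycelium of cultures kept at 28 °C in a minimal medium whose carbon source was cellulose. The groups were the deletion mutant QM6aΔ72004 with methionine, QM6a wild type with methionine, QM6aΔ72004 without it and QM6a without it, each in constant light and in constant darkness, with 3 libraries in each of the 8 groups. Methionine was L-methionine at 5 mM. Culture time is given as 96 h in the protocol but as 72 h for each sample, a conflict that stays unresolved here. Nothing in the labels tells if the 3 libraries came from separate cultures or how many clones of the mutant were used, so the p-values may reflect no more than technical spread.

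*T. reesei* is known for secreting large amounts of cellulases and hemicellulases when it meets cellulose, under the transcription factor encoded by xyr1. Acetyl xylan esterases such as the product of axe1 take acetyl groups off xylan. The product of cip1 is a secreted protein, induced on cellulose, that carries a cellulose-binding module. The product of cel61a is a lytic polysaccharide monooxygenase, a copper enzyme that cuts cellulose by oxidation and helps the hydrolytic cellulases. Sorbicillins are yellow polyketides made by this fungus from a gene cluster.

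Totals ran from 13210988 to 21224989 counts per library. The model of the deleted gene, TrE0303W, had 0 counts in all 12 QM6aΔ72004 libraries, against 86 to 579 counts in the 12 QM6a libraries. The library numbers of light samples and of dark samples form 2 separate series, and a batch of libraries cannot be told apart from lighting. In total RNA from mycelium, fewer cells of a type and less RNA per cell cannot be told apart either. Levels are given in CPM, that is, counts relative to each library's total after TMM scaling, and 3 counts in 1 library correspond to 0.132 to 0.218 CPM.

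The run spans 15.6 kb, from position 2206789 to 2222382 in the coordinates of the count table, which does not name its genome build. TrE0665C occupies 2206789 to 2209125 on the minus strand in 6 exons. TrE0666W, at 2209809 to 2210558 in 2 exons, and TrE0667W, at 2210886 to 2211707 in 3 exons, lie on the plus strand. The other 4 models lie on the minus strand: TrE0668C at 2214464 to 2215057 in 4 exons, TrE0669C at 2216541 to 2217596 in 3 exons, TrE0670C at 2219457 to 2220467 in 2 exons and TrE0671C at 2221294 to 2222382 in 2 exons. The 3 cell wall models are thus neighbours on 1 strand, with 1860 bases between TrE0669C and TrE0670C and 826 bases between TrE0670C and TrE0671C.

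Names came from positions, since the count table and the reference annotation share 0 identifiers. TrE0669C lay over TRIREDRAFT_73632 (axe1), TrE0670C over TRIREDRAFT_73638 (cip1), TrE0671C over TRIREDRAFT_73643 (cel61a) and TrE0665C over TRIREDRAFT_102499, each at the distance from linked models on both sides that the reference gives, to within 1 base. TrE0668C had the same span as TRIREDRAFT_102500, with 4 neighbours of identical span. TrE0666W and TrE0667W were not linked to any locus tag. Sorbicillin cluster genes were taken from a list of 8 locus tags, all of which were linked, to TrE0658C to TrE0665C. TrE0665C is thus the end of that list as well as the start of the run.

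In darkness without methionine the 3 cell wall genes were among the more abundant transcripts of the mycelium, and in light they were close to absent. TrE0671C (cel61a) had 0.354, 0.183 and 0 CPM in QM6aΔ72004 in light, against 2575, 2699.8 and 2650.2 CPM in QM6aΔ72004 in darkness. The QM6a libraries had 0, 0.161 and 0.848 CPM in light, against 2216, 2356 and 2040.1 CPM in darkness. Every dark library was above every light library, as in 66.6% of all tested models in QM6aΔ72004 and 68.4% in QM6a in either direction, and the means differed by a factor of 14739 in QM6aΔ72004 and of 6547 in QM6a.

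TrE0670C (cip1) had 0.759, 0.0611 and 0.180 CPM in light in QM6aΔ72004, against 1604, 1961 and 1987 CPM in darkness. In QM6a it had 0.114, 0 and 1.27 CPM in light, against 1506, 1713 and 1536 CPM in darkness. The light means were lower by a factor of 5548 in QM6aΔ72004 and of 3429 in QM6a.

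TrE0669C (axe1) had 0.152, 0 and 0 CPM in light in QM6aΔ72004, against 663, 907 and 876 CPM in darkness. Wild type QM6a had 0, 0 and 0.636 CPM in light, against 602, 661 and 590.2 CPM in darkness. The light mean was lower by a factor of 2912 in QM6a. The QM6aΔ72004 light libraries held only 3 counts in all. The ratio there, from pooled counts and not from means, was 14282, with a counting interval of 4887 to 69259. Most of the light counts came from single libraries: QM6a light library 3 held 39 of the 44 counts of the 3 genes in that group, and QM6aΔ72004 light library 1 held 25 of 32.

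The other models of the run were rare transcripts. TrE0665C averaged 0 CPM in light in QM6aΔ72004, against 1.49 ± 0.630 CPM in darkness (SD, n = 3 libraries each), at least 26.6-fold lower when the 0 is set to 3 counts over the group. In QM6a it averaged 0.0805 ± 0.0858 CPM in light and 2.15 ± 0.746 CPM in darkness. TrE0668C averaged 0 CPM in light in QM6aΔ72004, against 3.07 ± 0.456 CPM in darkness, at least 53.6-fold lower. In QM6a it had a single count in light, against 1.99 ± 0.785 CPM in darkness. TrE0666W had 14 counts in all 24 libraries together, and TrE0667W had at most 0.152 CPM in any library. So the run is not uniformly expressed in darkness: 3 of 7 models carry nearly all of its signal, and 2 of 7 lay near or under the level of 3 counts a library in every group.

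**Figure D1:**
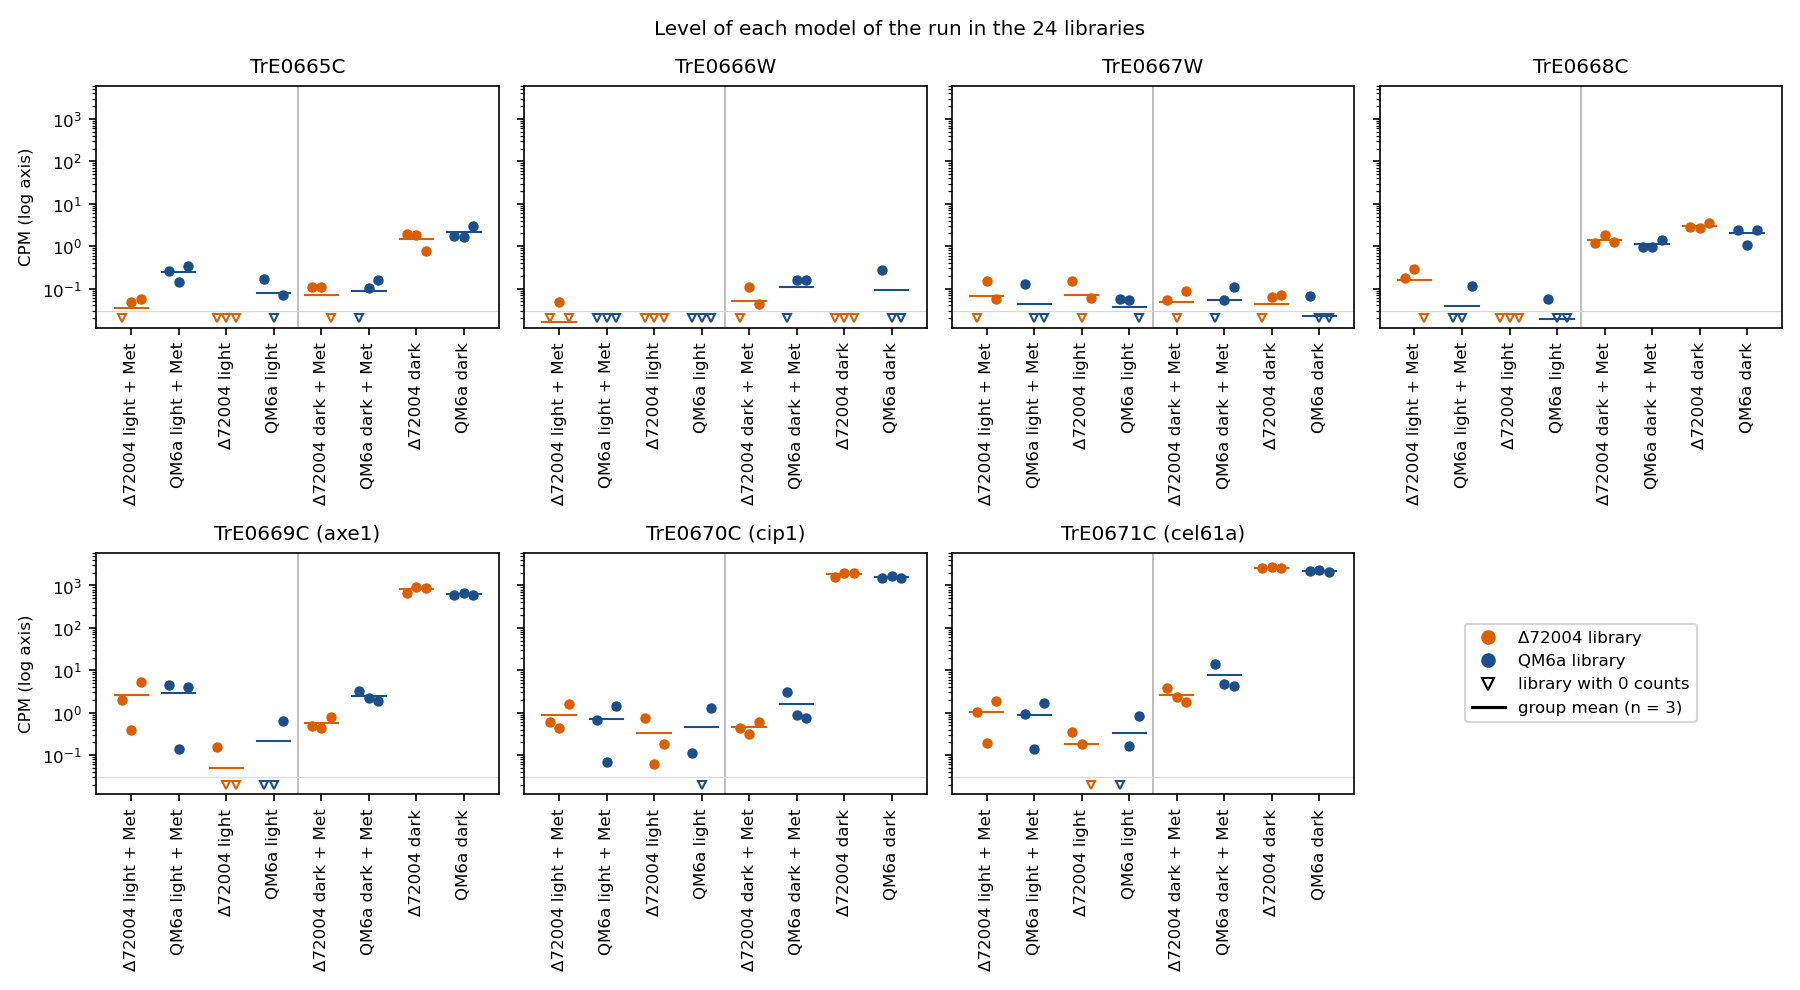
Level of the 7 models in each of the 24 libraries, in CPM on a log axis, with light groups left of the vertical line and dark groups right of it; points are libraries, bars group means (n = 3), open triangles libraries with 0 counts. The axe1, cip1 and cel61a models stand between 590.2 and 2699.8 CPM in all 6 dark libraries without methionine and at or under 14.0 CPM in the other 18 libraries.

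Per kilobase of model, TrE0671C ranked 24 in QM6aΔ72004 and 32 in QM6a among 10879 models in darkness. TrE0670C ranked 44 in QM6aΔ72004 and 63 in QM6a, and TrE0669C 200 in QM6aΔ72004 and 230 in QM6a. On that scale the levels in darkness without methionine had the order cel61a, cip1, axe1 in both genotypes. In QM6aΔ72004 they were 2552 ± 60.7 CPM per kb for cel61a, 1946 ± 225 for cip1 and 897 ± 146 for axe1. In QM6a they were 2129.5 ± 153 CPM per kb for cel61a, 1667 ± 118 for cip1 and 679 ± 41.4 for axe1. Each step in this order exceeded the spread over the 3 libraries. Together the 3 genes took 0.476 ± 0.0222% of all counts in QM6aΔ72004 and 0.413 ± 0.0239% in QM6a in darkness.

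Methionine in darkness lowered these levels by 252-fold to 4039.8-fold for the 3 cell wall genes. In QM6aΔ72004 all 5 tested models fell, where 37.7% of all 9308 tested models were lower by the same test (edgeR, adjusted p below 0.05). In QM6a 4 of 5 fell, where 36.9% of all tested models were lower. The 5 models passed the filter on low counts through the dark groups in which they are high, and the dark libraries without methionine are among those the run was picked on, so the counts are given beside the background and are not independent support.

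TrE0670C (cip1) fell most. In QM6aΔ72004 it had 0.437, 0.319 and 0.618 CPM with methionine, against the 1604, 1961 and 1987 CPM without. Its QM6a levels were 3.14, 0.900 and 0.763 CPM with methionine, against the 1506, 1713 and 1536 CPM without. The groups did not overlap in either genotype, as in 78.2% of all tested models in QM6aΔ72004 and 81.2% in QM6a, with QM6a library 1 the highest of the methionine libraries. The log2 fold change was −11.93 (SE 0.66, adjusted p = 1.59e-12) in QM6aΔ72004 and −9.98 (SE 0.60, adjusted p = 5e-12) in QM6a. As a ratio of means this was a 4039.8-fold drop in QM6aΔ72004 and a 989-fold drop in QM6a, and without QM6a methionine library 1 the QM6a log2 fold change was −10.88.

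TrE0669C (axe1) had 0.492, 0.425 and 0.795 CPM with methionine in QM6aΔ72004, a 1429-fold drop (log2 fold change −10.43, SE 0.70, adjusted p = 2.9e-11). In QM6a it had 3.33, 2.17 and 1.85 CPM with methionine, a 252-fold drop (−7.99, SE 0.60, adjusted p = 1.97e-10). No library with methionine came near the dark libraries without it.

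TrE0671C (cel61a) had 3.83, 2.34 and 1.77 CPM with methionine in QM6aΔ72004, a 999-fold drop (log2 fold change −9.98, SE 0.62, adjusted p = 9.23e-12). The QM6a libraries had 14.0, 4.82 and 4.20 CPM, a 287-fold drop (−8.18, SE 0.57, adjusted p = 5.49e-11), and the log2 fold change was −8.93 without library 1. It kept the highest level of the 3 under methionine in both genotypes.

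TrE0665C, the model linked to the sorbicillin list, averaged 0.0718 ± 0.0622 CPM with methionine and 1.49 ± 0.630 CPM without in QM6aΔ72004 (log2 fold change −4.34, SE 0.67, adjusted p = 1.07e-05). In QM6a it averaged 0.0898 ± 0.0830 CPM with methionine and 2.15 ± 0.746 CPM without (−4.44, SE 0.62, adjusted p = 3.26e-06). The methionine groups held 4 and 5 counts, so these folds rest on few reads: without methionine library 3 they were −3.71 in QM6aΔ72004 and −5.09 in QM6a.

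TrE0668C changed least. It had 1.20, 1.81 and 1.24 CPM with methionine in QM6aΔ72004, against 2.86, 2.75 and 3.59 CPM without, and fell by 1.11 on the log2 scale (SE 0.37, adjusted p = 0.0101). In QM6a it had 0.968, 0.953 and 1.42 CPM with methionine, against 2.44, 1.09 and 2.45 CPM without. Those groups overlapped, and the log2 fold change of −0.85 (SE 0.40, adjusted p = 0.0608) did not pass the threshold. It passed without QM6a dark library 2 (−1.13, adjusted p = 0.0162) or without QM6a dark methionine library 3 (−1.06, adjusted p = 0.0486).

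**Figure D2:**
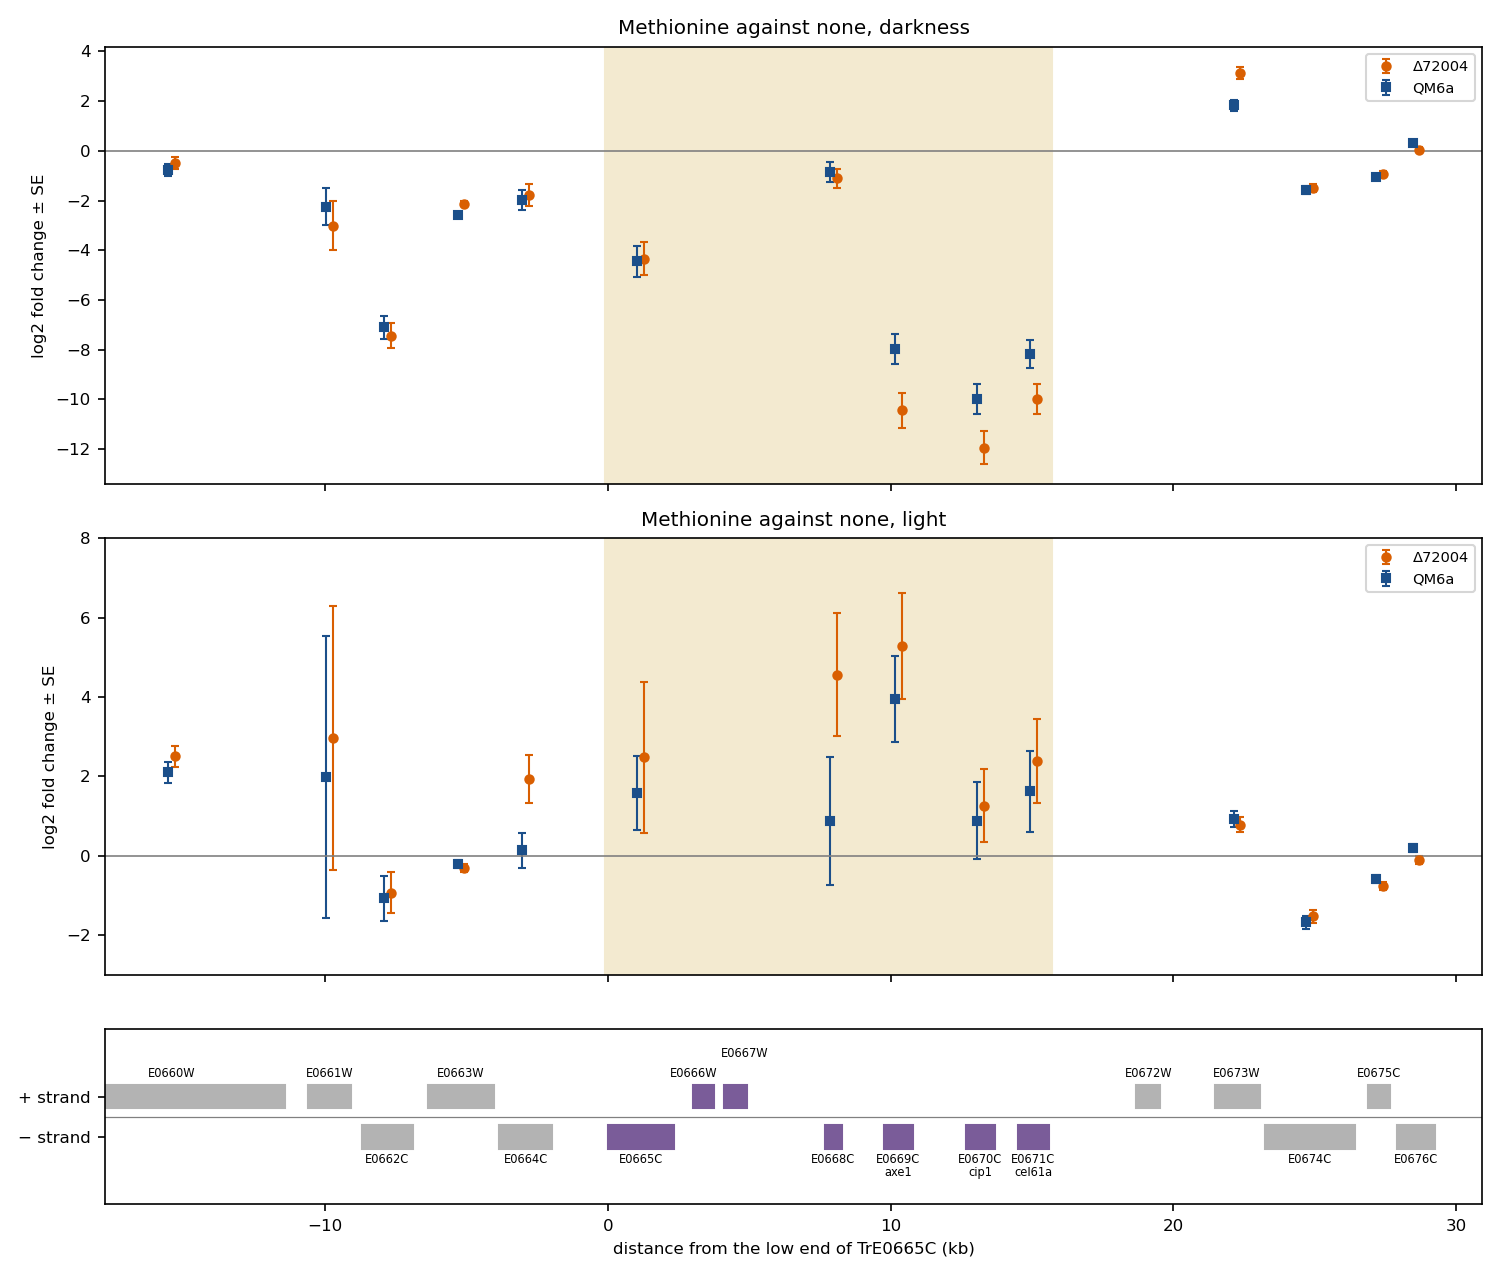
Log2 fold change with methionine against none (± SE) for the tested models of the run (shaded) and the tested ones among the 5 models on each side, in darkness (top) and light (middle), with QM6aΔ72004 as circles and QM6a as squares; the map below shows each model to scale by strand, in kb from the low end of TrE0665C. In darkness the axe1, cip1 and cel61a models reach −7.99 to −11.93, while beyond the run TrE0673W lies above 0 at 3.12 in QM6aΔ72004 and 1.83 in QM6a, and TrE0674C below 0 at −1.49 in QM6aΔ72004 and −1.56 in QM6a.

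Neighbours on both sides of the run fell with methionine in darkness too, and others did not. In QM6a all 5 models before the run were lower, and the neighbours that rose lay beyond its other end. On the sorbicillin side TrE0662C fell with methionine in darkness to 2.16 ± 0.864 CPM, against 366 ± 91.5 CPM, in QM6aΔ72004 (log2 fold change −7.43, adjusted p = 2.13e-11). In QM6a it fell to 7.24 ± 7.28 CPM, against 1001 ± 150.1 CPM (−7.10, adjusted p = 1.66e-11). TrE0663W fell by 2.13 on the log2 scale in QM6aΔ72004 and by 2.59 in QM6a. TrE0664C, next to the run, fell by 1.97 in QM6a (adjusted p = 0.000193). It averaged 1.36 ± 0.0724 CPM with methionine and 4.69 ± 1.08 CPM without in QM6aΔ72004. In QM6a TrE0661W fell by 2.25 (adjusted p = 0.0123) and TrE0660W by 0.78 (adjusted p = 0.00525). Beyond the other end, TrE0672W was not tested, and TrE0673W rose to 6.20 ± 0.294 CPM, against 0.715 ± 0.409 CPM, in QM6aΔ72004 (3.12, adjusted p = 5.17e-10). In QM6a TrE0673W rose to 4.87 ± 0.574 CPM, against 1.38 ± 0.445 CPM (1.83, adjusted p = 4.64e-07). The next models fell: TrE0674C to 87.7 ± 4.78 CPM, against 247 ± 24.6 CPM, in QM6aΔ72004 (−1.49, adjusted p = 3.74e-08) and to 73.2 ± 3.60 CPM, against 215.9 ± 4.18 CPM, in QM6a (−1.56, adjusted p = 2.1e-08). TrE0675C fell by 0.92 on the log2 scale in QM6aΔ72004 and by 1.04 in QM6a, while TrE0676C lay at 0.04 (adjusted p = 0.719) in QM6aΔ72004 and rose by 0.32 in QM6a. The 3093 bases between TrE0671C and TrE0672W are the widest gap inside or beside the run.

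Over the whole sorbicillin list of 8 models, methionine in darkness lowered 5 and raised 2 in QM6aΔ72004, with a median log2 fold change of −1.96 beside 0.03 over all models. In QM6a it lowered 6 and raised 1, with a median of −2.11 beside 0.03 over all models. By the same test 37.7% of all tested models were lower in QM6aΔ72004 and 36.9% in QM6a. TrE0665C is 1 of the 8, and TrE0658C at its other end rose in both genotypes.

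Cell wall genes outside the run moved with it. The list of 14 linked genes with the symbols cel, cip, axe or man was drawn up after the data had been seen. Methionine in darkness lowered 12 of 14 and raised 1 in QM6aΔ72004, where 37.7% of all tested models were lower. The median log2 fold change was −10.08. In QM6a methionine lowered 13 of 14 and raised 1, where 36.9% of all tested models were lower, with a median of −8.58. The cellobiohydrolase gene cel7a averaged 5.20 CPM with methionine and 15564 CPM without in QM6aΔ72004 (−11.55, adjusted p = 4.08e-10), and the endoglucanase gene cel5a averaged 0.434 CPM with methionine and 1799 CPM without (−12.04, adjusted p = 3.33e-13). Gene cel5b went the other way in QM6aΔ72004, at 115 CPM with methionine and 20.7 CPM without (2.47, adjusted p = 1.54e-10). Gene axe2 differed little, at −0.14 (adjusted p = 0.144) in QM6aΔ72004 and −0.32 (adjusted p = 0.00191) in QM6a.

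Of the 8 regulators listed, 3 were linked and tested, and all 3 were lower with methionine in darkness in both genotypes. The regulator gene of the cellulases, xyr1, averaged 174 CPM with methionine and 619 CPM without in QM6aΔ72004 (log2 fold change −1.83, adjusted p = 9.66e-15). In QM6a it averaged 171 CPM and 634 CPM (−1.89, adjusted p = 6.24e-15). The blue-light receptor gene blr1 moved little, by −0.24 in QM6aΔ72004 and −0.27 in QM6a, and its partner blr2 by −0.62 in QM6aΔ72004 and −0.61 in QM6a.

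Genes listed as markers of conidia, the asexual spores that mycelium can form, moved with methionine too. The list held the polyketide synthase gene TRIREDRAFT_82208 and hydrophobin genes. The linked hydrophobin genes hfb1 and hfb3 were taken as hydrophobins, and whether they mark conidia was not tested. The 5 names listed give hfb2 both by symbol and as TRIREDRAFT_119989, and hfb2 was not linked. Of the listed names 3 were linked and 2 tested, and both of these fell in all 4 methionine comparisons. The summed level of the linked genes ran from 288 to 364 CPM with methionine and from 4490 to 4760 CPM without in QM6aΔ72004 in darkness. In QM6a in darkness it ran from 365 to 433 CPM with methionine and from 4375 to 4754 CPM without. In light it ran from 43.6 to 132.0 CPM with methionine and from 1274 to 1557 CPM without in QM6aΔ72004, and from 60.8 to 72.0 CPM and from 1018 to 1200.0 CPM in QM6a. The linked gene hfb1 was at 0 in all 4 light groups. Without methionine hfb3 made up most of each sum, so the fall in the sums was mainly that of hfb3. In QM6aΔ72004 without methionine hfb3 averaged 3856 CPM in darkness and 1406 CPM in light, against 811.96 and 43.8 CPM for TRIREDRAFT_82208. In QM6a hfb3 averaged 3398 CPM in darkness and 1021.6 CPM in light, against 1105.7 and 90.2 CPM. With methionine in darkness TRIREDRAFT_82208 was the larger part in both genotypes. The part of conidia in the changes of the run was not tested.

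In light the run started near 0, and methionine gave small gains in a few models. In QM6aΔ72004 2 of 5 tested models were higher with methionine and none lower, where 37.4% of all tested models were higher and 34.3% lower. In QM6a 1 of 5 was higher and none lower, where 35.2% of all tested models were higher and 32.2% lower. The light libraries without methionine are among those the run was picked on, for their few counts, so a decrease could hardly be seen, and the models passed the filter through the dark groups. The counts in light are thus a description and are not independent support.

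TrE0669C (axe1) was the model that rose in both genotypes. In QM6aΔ72004 it had 1.94, 0.392 and 5.34 CPM with methionine in light, against 0.152, 0 and 0 CPM without (log2 fold change 5.28, SE 1.34, adjusted p = 0.00151). The ratio from pooled counts was 42.5, with a 95% counting interval of 14.2 to 208, since the light group held 3 counts. Wild type QM6a had 4.45, 0.140 and 3.94 CPM with methionine, against 0, 0 and 0.636 CPM without (3.96, SE 1.08, adjusted p = 0.00313). Library 2 was low in both methionine groups, and the QM6a groups overlapped while the QM6aΔ72004 groups did not, as in 73.4% of all tested models. The QM6aΔ72004 value was 8.42 without light library 1 and 4.22 without light methionine library 3. In QM6a it was 8.67 without light library 3, 3.31 without light library 2 and 3.36 without light library 1, and it passed in each. The highest of these are set against libraries at 0 counts and are no measure of size.

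TrE0671C (cel61a) had 1.06, 0.196 and 1.86 CPM with methionine in light in QM6aΔ72004, against 0.354, 0.183 and 0 CPM without (log2 fold change 2.38, SE 1.06, adjusted p = 0.0505). In QM6a it had 0.916, 0.140 and 1.65 CPM, against 0, 0.161 and 0.848 CPM (1.62, SE 1.02, adjusted p = 0.167). Neither passed, and the groups overlapped in both genotypes. In QM6aΔ72004 it did pass with median-ratio factors (adjusted p = 0.0487), library totals (0.0336), the replicate block (0.0230) and DESeq2 (0.0129), and without light library 1 (3.37, adjusted p = 0.0493) or without light methionine library 2 (2.87, adjusted p = 0.0161).

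TrE0670C (cip1) had 0.618, 0.441 and 1.63 CPM with methionine in light in QM6aΔ72004, against 0.759, 0.0611 and 0.180 CPM without (log2 fold change 1.26, SE 0.92, adjusted p = 0.226). Its QM6a levels were 0.654, 0.0701 and 1.43 CPM, against 0.114, 0 and 1.27 CPM (0.89, SE 0.98, adjusted p = 0.432). In QM6a the outcome for both genes depended on light library 3: without it TrE0670C passed at 3.61 (adjusted p = 0.0334) and TrE0671C at 3.40 (adjusted p = 0.0467), and the count became 3 of 5.

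TrE0668C had 0.176, 0.294 and 0 CPM with methionine in light in QM6aΔ72004, against 0 CPM in all 3 libraries without it, at least 2.89-fold higher (adjusted p = 0.0133). The methionine group held 10 counts, and the call was lost without its library 2 (adjusted p = 0.0559). In a fit of the 2 light groups alone no member passed in either genotype. TrE0669C did not pass the filter on low counts in those fits, nor did TrE0668C. Gains in light of this size lie close to the level of 3 counts a library.

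In light, methionine raised 6 and lowered 2 of the 14 other cell wall genes in QM6aΔ72004, and raised 5 and lowered 3 in QM6a. Of the sorbicillin list methionine raised 4 and lowered 1 of 8 in QM6aΔ72004, and raised 3 in QM6a. Over all tested models 37.4% were higher and 34.3% lower in QM6aΔ72004, and 35.2% higher and 32.2% lower in QM6a. With so few listed genes the raised counts lie near these shares and are a description. The sorbicillin median log2 fold change was 2.32 in QM6aΔ72004 and 1.71 in QM6a, beside 0.03 over all models in both. The regulator gene xyr1 was raised in light, by 0.30 in QM6aΔ72004 and 0.25 in QM6a, while blr1 and blr2 were lower in both.

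With methionine present, light and darkness differed far less in these genes than without it, where the gap is the one the run was picked on. TrE0671C averaged 1.04 ± 0.830 CPM in light with methionine and 2.64 ± 1.06 CPM in darkness with methionine in QM6aΔ72004, and 0.904 ± 0.757 CPM and 7.68 ± 5.51 CPM in QM6a. TrE0669C averaged 2.56 ± 2.53 CPM in light and 0.571 ± 0.197 CPM in darkness in QM6aΔ72004, and 2.84 ± 2.35 CPM and 2.45 ± 0.775 CPM in QM6a. Those axe1 groups overlapped in both genotypes. TrE0670C averaged 0.896 ± 0.642 CPM in light and 0.458 ± 0.151 CPM in darkness in QM6aΔ72004, and 0.717 ± 0.680 CPM and 1.60 ± 1.34 CPM in QM6a. For TrE0671C a gap stayed in QM6a, with libraries from 0.140 to 1.65 CPM in light and from 4.20 to 14.0 CPM in darkness. TrE0668C kept a gap under methionine, with 0.157 ± 0.148 CPM in light and 1.41 ± 0.338 CPM in darkness in QM6aΔ72004, and 0.0380 ± 0.0659 CPM and 1.11 ± 0.264 CPM in QM6a.

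The make-up of the 3 genes' signal differed between conditions. Of their summed CPM per kb in darkness without methionine, axe1 made up 16.6%, cip1 36.1% and cel61a 47.3% in QM6aΔ72004, and 15.2%, 37.2% and 47.6% in QM6a, on 248644 and 196839 counts. With methionine in darkness the share of cip1 was 13.1% in QM6aΔ72004 and 14.3% in QM6a, and that of cel61a 69.7% in QM6aΔ72004 and 62.9% in QM6a, on 217 and 613 counts. Over single libraries the cip1 share ran from 9.79% to 20.1% with methionine and from 34.4% to 37.2% without in QM6aΔ72004. In QM6a it ran from 11.6% to 16.1% with methionine and from 36.1% to 38.1% without, so the groups did not overlap in either genotype. In light with methionine axe1 had the highest share of the summed CPM per kb, at 59.1% in QM6aΔ72004 and 65.8% in QM6a, on 260 and 220 counts. Over single libraries the axe1 share ran from 39.8% to 62.6% in QM6aΔ72004 and from 42.4% to 75.7% in QM6a. In QM6aΔ72004 cip1 was ahead in library 2 at 42.8%, on 9 counts against 8 for axe1. The 42.4% in QM6a is from library 2, which held 5 counts of the 3 genes, so both lowest shares rest on few reads. These shares are a description of summed CPM per kb, with no test.

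**Figure D3:**
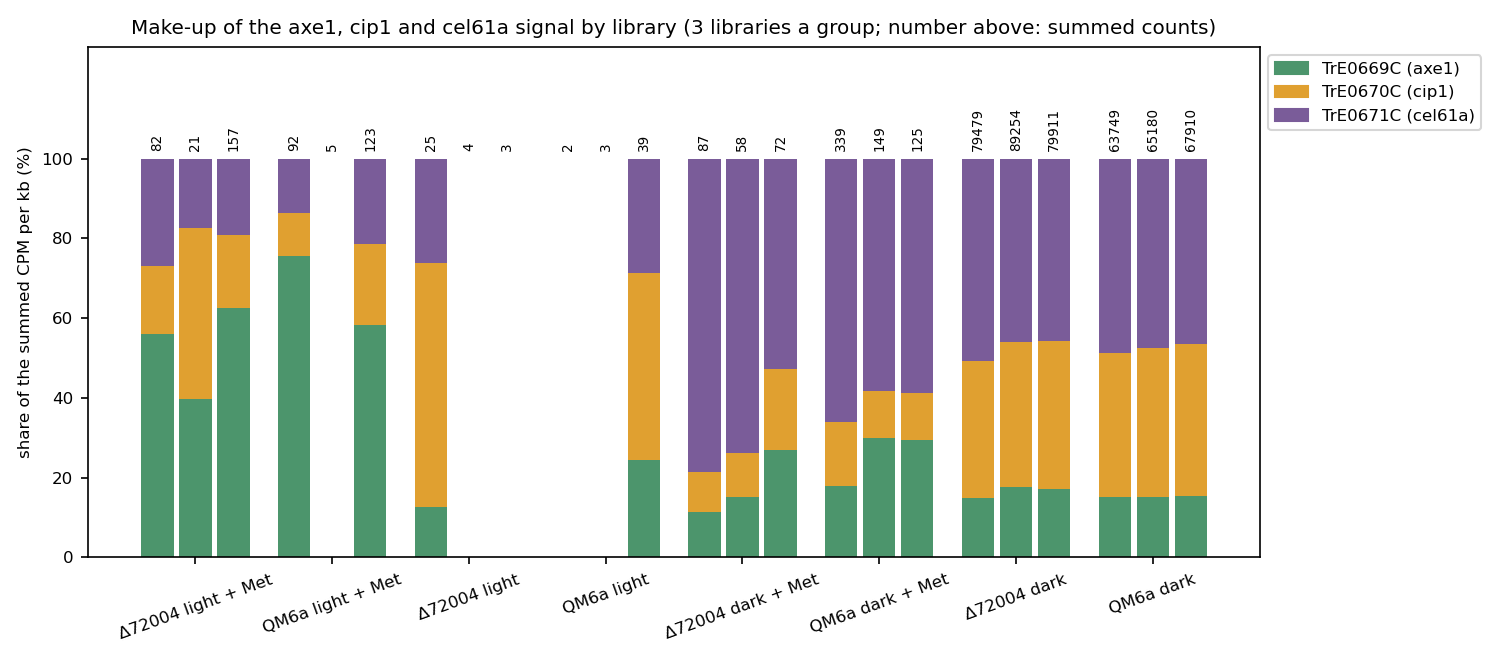
Share of axe1, cip1 and cel61a in their summed CPM per kb, one bar per library, with the summed counts above each; libraries with under 20 such counts have no bar. The cip1 share stands between 34.4% and 38.1% in the 6 dark libraries without methionine and between 9.79% and 20.1% in the 6 dark libraries with it.

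Across all 24 libraries the log2 CPM of the 3 cell wall models went together closely, with Pearson's r of 0.975 for axe1 with cip1, 0.972 for axe1 with cel61a and 0.976 for cip1 with cel61a. TrE0665C followed them at 0.885 to 0.906 and TrE0668C at 0.716 to 0.814. These values describe libraries that fall into a few separate conditions, share their depth among the models and include those the run was chosen on.

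No tested model of the run passed the test for the deletion of the gene behind TrE0303W, in any of the 4 conditions (edgeR, adjusted p below 0.05). The background was low as well: 0.204% of all tested models passed in darkness, 0.15% in light, 0.537% in darkness with methionine and 0.344% in light with methionine. At an unadjusted p under 0.05, 0 of 5 stood out in darkness, 0 in light, 3 in darkness with methionine and 1 in light with methionine. The share of all tested models at that p was 14.1% in darkness, 14.5% in light, 8.27% in darkness with methionine and 9.19% in light with methionine. DESeq2 called 0 of 5 in each. The edgeR fit takes 1 estimate of spread per model over all 8 groups, also those near 0. These outcomes therefore do not show that the levels were equal. For TrE0669C in darkness with methionine the SE was 0.83 in that fit. With only the groups compared it was 0.34 (edgeR, adjusted p = 0.0905), while for TrE0671C it was 0.52 in both.

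In darkness without methionine TrE0671C averaged 2642 ± 62.8 CPM in QM6aΔ72004 and 2204 ± 158 CPM in QM6a (log2 fold change 0.26, SE 0.41, adjusted p = 0.833). TrE0669C averaged 815 ± 133 CPM in QM6aΔ72004 and 618 ± 37.7 CPM in QM6a (0.40, SE 0.42, adjusted p = 0.726). TrE0670C averaged 1851 ± 214 CPM and 1585 ± 112 CPM (0.22, SE 0.38, adjusted p = 0.852). For cel61a and axe1 every QM6aΔ72004 library was above every QM6a library, as was so for TrE0668C, and for cip1 the groups overlapped. Such a separation, in either direction, was seen in 21.3% of all tested models.

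In darkness with methionine the same 3 genes had lower values in QM6aΔ72004, and no library overlapped. TrE0671C averaged 2.64 ± 1.06 CPM in QM6aΔ72004 and 7.68 ± 5.51 CPM in QM6a (log2 fold change −1.54, SE 0.52, adjusted p = 0.29). TrE0670C averaged 0.458 ± 0.151 CPM and 1.60 ± 1.34 CPM (−1.73, SE 0.78, adjusted p = 0.551), and TrE0669C 0.571 ± 0.197 CPM and 2.45 ± 0.775 CPM (−2.05, SE 0.83, adjusted p = 0.448). None passed, and 16.5% of all tested models had groups that did not overlap in this condition. Without QM6a methionine library 1 the differences shrank to −0.79 for TrE0671C and −0.82 for TrE0670C.

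In light without methionine the 3 cell wall genes held 32 counts in QM6aΔ72004 and 44 in QM6a. In light with methionine TrE0665C had 2 counts in QM6aΔ72004 and 12 in QM6a, groups that did not overlap (adjusted p = 0.391), where 14.3% of all tested models had groups that did not overlap.

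**Figure D4:**
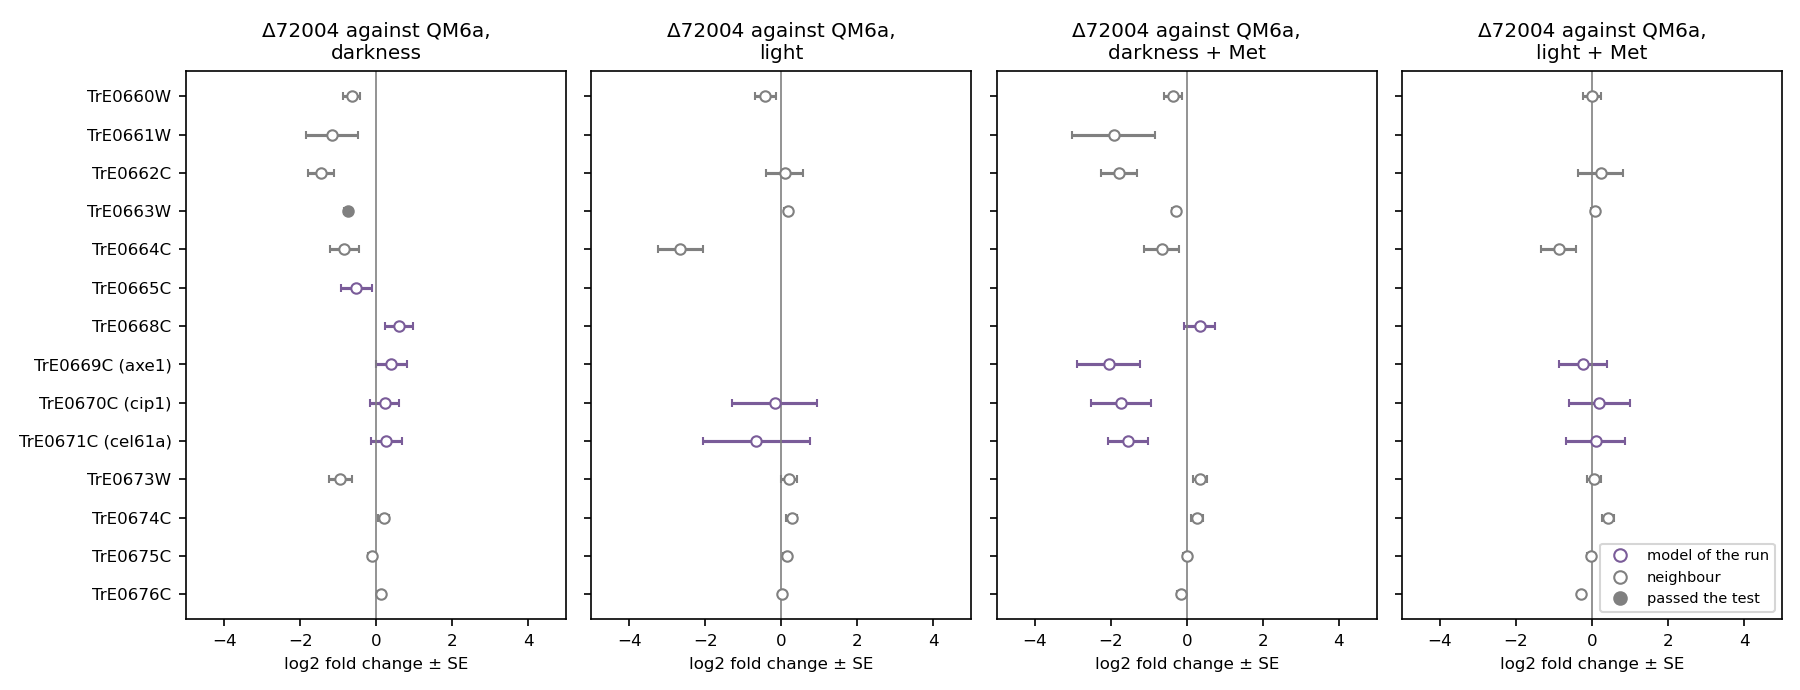
Log2 fold change of QM6aΔ72004 against QM6a (± SE) for the tested models of the run (purple) and of the 5 models on each side (grey), in the 4 conditions; filled points passed the test, and models whose mean was under 0.25 CPM in both groups are left out. No model of the run is filled, and TrE0663W in darkness is, at −0.74.

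The nearest model that did pass was TrE0663W, before the run, with 130.1 ± 16.0 CPM in QM6aΔ72004 and 217 ± 23.3 CPM in QM6a in darkness (log2 fold change −0.74, SE 0.10, adjusted p = 0.000616). TrE0659C of the sorbicillin list passed too, at −0.68 (adjusted p = 0.0299). So 2 of the 8 listed models passed as lower in the mutant in darkness, where 0.204% of all tested models passed in either direction. The median log2 fold change of the list was −0.791, beside 0.001 over all models. TrE0662C did not pass but averaged 366 ± 91.5 CPM in QM6aΔ72004 and 1001 ± 150.1 CPM in QM6a. In none of the 4 conditions did a cell wall gene outside the run pass, 0 of 14 in each.

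The title of the series ties the methionine response to a G-protein coupled receptor. Whether the response of the run depended on the deleted gene was tested as the difference between the 2 genotypes' log2 fold changes. None of the 5 models passed in darkness, where 0.043% of all tested models did, nor in light, where 0.0322% did. At an unadjusted p under 0.05, 3 stood out in darkness, where 7.47% of all tested models did, and 0 in light, where 13.4% did, and DESeq2 called 0 in each. In darkness the log2 difference, mutant minus wild type, was −2.45 for TrE0669C (SE 0.93, adjusted p = 0.524), −1.95 for TrE0670C (SE 0.87, adjusted p = 0.641) and −1.80 for TrE0671C (SE 0.66, adjusted p = 0.499). When the 4 dark groups alone were fitted, TrE0669C passed (−2.45, SE 0.34, adjusted p = 0.0256). Without QM6a methionine library 1 the difference was −2.18 for TrE0669C, −1.05 for TrE0670C and −1.05 for TrE0671C.

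The models outside the run whose pattern over the 8 group means was most like that of its tested members were TrD0388W, TrB1693W, TrF0237C, TrC1575C and TrE0168W, with Pearson's r of 0.9955, 0.9935, 0.9934, 0.9924 and 0.9922. They shared the shape and not the size. Without methionine in QM6aΔ72004, TrC1575C (TRIREDRAFT_46819) averaged 0.912 CPM in light and 209 CPM in darkness, and TrD0388W (TRIREDRAFT_109806) 30.8 CPM in light and 72.4 CPM in darkness. With methionine in darkness TrC1575C was at 2.48 CPM and TrD0388W at 39.7 CPM. Ranked over the 24 libraries, 1 of these 5 stayed among the 5 most alike. Group means rest on 8 points in a few separate conditions, so the likeness is a description.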

How the data were processed

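The authors deposited unnormalized counts for each model, obtained with featureCounts 2.0.1 (paired reads, reverse strand), per the file headers. The submitters' processing notes name HISAT2 2.2.1. Libraries were rRNA-depleted and stranded, per the labels' protocols. Build: not given in the sources used here.

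Counts were tested with edgeR 4.0.16 (R 4.3.3): TMM scaling, the package's filter with a minimum count of 10, which left 9308 of 10879 models, the quasi-likelihood test over all 8 groups, and Benjamini-Hochberg adjustment over all tested models with a threshold of 0.05. The SE is the size of the log2 fold change divided by the square root of F. The procedure was tested on simulated data for the deletion in darkness only. All models were given the same spread, and only well-counted models were changed. The tests of methionine and changes in groups near 0 were not covered. Of the 7 models of the run, 5 passed the filter. Ratios are of mean CPM. With 0 counts in a group a fold is a bound against 3 counts over the group, and with 1 to 3 counts it has a 95% counting interval. Both cover counting error only.

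Alternatives were median-ratio factors, library totals, no filter, DESeq2 1.42.0, only the groups compared, a replicate block and each library left out. Same-numbered libraries deviated together, with all 3 residual correlations over 0.1 (0.136 to 0.475), only between the methionine groups of QM6aΔ72004 and QM6a in darkness. Between the light groups without methionine they ran from −0.425 to 0.196. The main fit paired no libraries, and the replicate block covered all groups of each lighting.

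Models were linked to locus tags of the RefSeq assembly v2.0 where at least 3 of 12 neighbours also had identical spans (4013 models, 36.9%), or by equal distance from linked models on both sides (3792 more), a rule added after the data had been seen. Of 3790 span links hidden and then given a distance link, 3789 came out right, and a further 223 were given no link. The hidden models have the same span as their reference gene. The distance-linked members do not, with cel61a in the reference reaching 231 and 31 bases beyond its model. The check therefore does not measure how often links like theirs are right. With at least 5 identical neighbours required, TrE0668C lost its span link, as did TrE0663W and TrE0664C before the run. The distance links, which name the other linked members, were not redone under that rule. TrE0668C is among the linked models that each of them is measured from, and TrE0664C is so for TrE0665C. The named models are the members, 5 neighbours on each side, listed genes and the 5 most alike. Members and lists were chosen with earlier results of these data known. Sequences and lists by product name were not analysed here.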

Additional observations from a re-analysis of the deposited data

Results flagged for a closer look

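TrE0669C (axe1) moved in opposite directions with methionine in the mutant: its log2 fold change was 5.28 in light and −10.43 in darkness in QM6aΔ72004, with no overlap of the libraries in either, as in 73.4% of all tested models in light and 78.2% in darkness. The light value is set against 3 counts and ran from 4.22 to 8.42 with 1 library left out. The difference between the lightings was not tested, because lighting was used to choose the run.

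In darkness, TrE0669C and TrE0671C (cel61a) had all QM6aΔ72004 libraries under all QM6a libraries with methionine and all above them without it. Groups did not overlap in 16.5% of all tested models with methionine and in 21.3% without. For TrE0669C the log2 fold change was −2.05 with methionine and 0.40 without. For TrE0671C it was −1.54 with methionine and 0.26 without. The difference between those values is the test of methionine with genotype given in the report, which did not pass for either gene (adjusted p = 0.524 for TrE0669C and 0.499 for TrE0671C, edgeR).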

How the results depend on the processing

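Counts of run models that passed changed in few settings. When only the groups compared were fitted, methionine in light gave 0 in QM6aΔ72004 in place of 2, and 0 in QM6a in place of 1, since fewer models passed the filter. The test of methionine with genotype in darkness gave 1 in place of 0 in that fit. The SE of TrE0669C was 0.34 there in place of 0.93, and the cause was not tested. Leaving out each library in turn gave 2 to 3 models for methionine in light in QM6aΔ72004, 1 to 3 in QM6a, and 4 to 5 for methionine in darkness in QM6a. For the deletion it gave 0 throughout. TrE0669C in light against darkness with methionine in QM6a was 0.26, and ran from −0.17 to 0.78 with a library left out, with −0.17 without QM6a light methionine replicate 1 and −0.05 without replicate 3. The values that follow did not pass in the full fit, and each changed sign with 1 library left out. In light the deletion gave −4.69 to 3.16 for TrE0669C, −1.68 to 2.55 for TrE0670C and −1.65 to 1.12 for TrE0671C. With methionine in light it gave −1.28 to 0.28, −0.50 to 1.20 and −0.54 to 0.90 for the same models, and in darkness −0.93 to 0.23 for TrE0665C. Methionine in QM6a in light gave −1.91 to 2.78 for TrE0668C and −0.12 to 3.61 for TrE0670C, which passed at its highest. Methionine with genotype gave −0.40 to 0.76 for TrE0665C and −0.48 to 0.017 for TrE0668C in darkness. In light it gave −0.31 to 1.501 for TrE0665C, −3.40 to 4.46 for TrE0669C, −2.36 to 1.88 for TrE0670C and −1.03 to 1.76 for TrE0671C.

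With the replicate block TrE0671C with methionine in light in QM6aΔ72004 passed (2.34, adjusted p = 0.0230), and the block changed no other call of a run model. The adjusted p of TrE0669C for the deletion in darkness with methionine, where same-numbered libraries deviated together, was 0.07 with the block.

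Over all models, the count for the deletion in darkness was 19, and 39 with library totals, 11 with no filter, 6 with the block, 3 with only the groups compared and 157 with DESeq2. In light it was 14, and 2 with only the groups compared and 247 with DESeq2. With methionine it was 50 in darkness (12 with only the groups compared, 109 with DESeq2) and 32 in light (20 with the block, 7 with only the groups compared, 89 with DESeq2). Leaving out libraries gave 5 to 58 in darkness, 5 to 312 in light, 16 to 56 in darkness with methionine and 15 to 83 in light with methionine. The test of methionine with genotype passed in 4 models in darkness (31 with DESeq2, 2 with the block) and in 3 in light (53 with DESeq2, 0 with only the groups compared).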
